A study of Mus musculus with 13 samples.

Results

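The miR-132 and miR-212 cluster comprises a pair of miRNA genes that lie side by side in the mouse genome. Its members were taken by name from small RNA-seq tables of thymic iNKT cells, and they are the hairpins mmu-mir-132 and mmu-mir-212 (2 of 1127 hairpins in the precursor table) and the arms miR-132-5p, miR-132-3p, miR-212-5p and miR-212-3p (4 of 1297 sequences in the mature table). The rule that finds them uses their names alone. iNKT cells are T cells whose invariant TCR recognizes lipids presented by CD1d. Cells were sorted by FACS from thymi of 6 WT mice on the C57BL/6 background and of 7 *Tet2/3* DKO mice (genotype Tet2-/-Tet3flx/flxcd4cre), aged 21 to 25 days, and each mouse gave 1 library from total RNA. In the *Tet2/3* DKO, *Tet2* is missing in every cell of the animal, whereas *Tet3* is removed by CD4 cre in cells that express or have expressed CD4. Cells of the thymus that never expressed CD4 thus lack *Tet2* alone. Male and female mice were included in each genotype, and sex was not a term in any comparison here.

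miR-132 and miR-212 are cut from a shared primary transcript. Their best known setting is the neuron, in which CREB switches the transcript on after activity or neurotrophin signals and miR-132 promotes the growth and branching of dendrites. In the immune system the pair has been described in T cells that differentiate towards Th17, where the aryl hydrocarbon receptor can induce it, and in hematopoietic stem cells and macrophages. TET2 and TET3 are dioxygenases that oxidize 5-methylcytosine, and iNKT cells without them are known to be skewed towards the NKT17 lineage.

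A mature miRNA recognizes targets mainly through its seed, bases 2 to 8 from the 5′ end, and the seeds are the reason to show the sequences of the 4 arms. They are printed 5′ to 3′ from RefSeq, with the seed in capitals and all other bases in lower case.
miR-132-3p: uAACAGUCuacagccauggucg
miR-212-3p: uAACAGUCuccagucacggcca
miR-132-5p: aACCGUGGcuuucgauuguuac
miR-212-5p: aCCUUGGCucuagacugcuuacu
The 3p arms of both hairpins carried one and the same seed. Among 1679 mature mouse miRNA names in the RefSeq table, that seed belonged to these 2 alone. The first 9 bases of the 3p arms were shared and 17 of 22 positions (77.3%) were identical. Counted from 1 at the 5′ end, with the base of miR-132-3p first, the differences from miR-132-3p to miR-212-3p were A10C, C14U, U17C, U20C and G22A. The 5 substitutions lie outside the seed. The seeds of the 5p arms differed from it and from each other, and each was held by 1 name in the table.

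The hairpins show how the arms sit in their precursors. Here the capitals mark the 2 mature arms of each hairpin, the 5p arm first, and the lower case marks the loop and the flanks.
mmu-mir-132: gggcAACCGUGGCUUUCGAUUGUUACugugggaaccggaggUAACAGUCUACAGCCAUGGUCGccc
mmu-mir-212: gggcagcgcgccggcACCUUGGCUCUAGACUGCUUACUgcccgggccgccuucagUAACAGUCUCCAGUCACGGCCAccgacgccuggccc
The hairpin of mir-132 had 66 bases with a GC content of 57.6%, and that of mir-212 had 91 bases with a GC content of 69.2%. In the GRCm38.p6 assembly mir-212 lies at chr11:75173388-75173478 and mir-132 at chr11:75173682-75173747, both on the plus strand. Thus 203 bases separate them and the cluster spans 360 bases. In GENCODE both hairpins fall in the first intron of 1700016P03Rik, a processed transcript of 3 exons on the same strand (chr11:75172560-75177633). The map of the locus shows the hairpins close to the start of this host, with *Hic1* upstream and *Ovca2* over the 3′ end of the host, both of them on the minus strand.

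**Figure D1:**
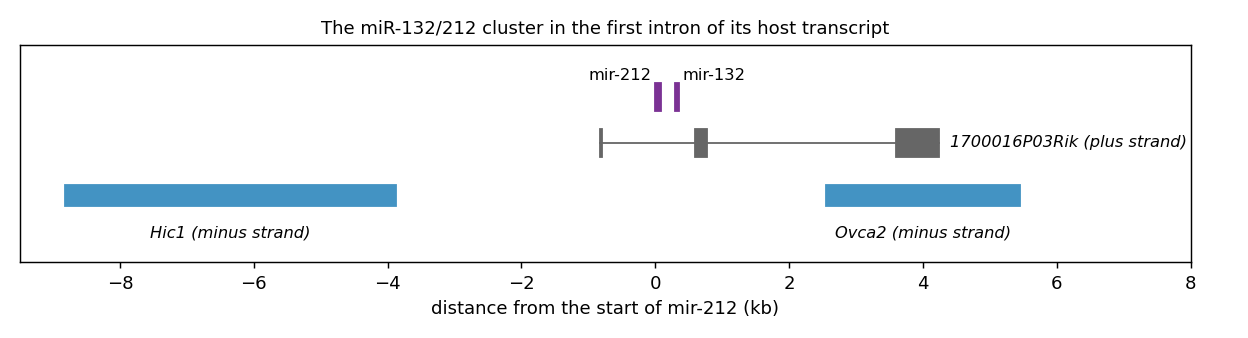
Map of the miR-132 and miR-212 cluster in the mouse genome. The horizontal axis gives the distance from the start of mir-212 in kb, grey boxes joined by a line are the exons and introns of the host, purple boxes are the hairpins, and blue boxes are the whole genes *Hic1* and *Ovca2*. The hairpins lie 203 bases apart in the first intron of their host.

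Values are CPM, counts relative to the total of their library, after scaling of each library by TMM, which corrects for differences in the makeup of libraries. Counted totals per library were 469117 to 1110226 in WT and 728653 to 1910526 in *Tet2/3* DKO for hairpins, and 1110852 to 2582057 and 1837631 to 4361963 for mature sequences, so WT libraries were shallower. The shallowest library of each genotype was WT replicate 1 and *Tet2/3* DKO replicate 7. The summed level of 6 lymphoid hairpins (mir-142a, mir-150 and the mir-181 genes) was 186795 to 223317 CPM in WT and 180314 to 251003 CPM in *Tet2/3* DKO. As mir-142a is found across blood cells, this sum does not tell T cells from other blood cells. It counts both mir-181a-1 and mir-181a-2, which had nearly the same WT mean (36531 and 35962 CPM). The members of this list went opposite ways, since the 4 mir-181 hairpins were higher in *Tet2/3* DKO (log2 fold changes of 0.68 to 0.89) and mir-142a (-0.93, edgeR adjusted p = 8.33e-06) and mir-150 (-1.28, edgeR adjusted p = 1.01e-06) were lower. Of 10 tested arms of these hairpins, 4 were higher and 3 were lower, beside 28.2% and 27.4% of all mature sequences. The abundant arms miR-181a-5p (-0.03, edgeR adjusted p = 0.832) and miR-181b-5p (0.19, edgeR adjusted p = 0.21) were not called. Adjusted p-values of single miRNAs come from a fit over the whole table. Scaling matters in these data. Of the hairpins called, 54.5% were higher in *Tet2/3* DKO with TMM, 73.2% with library size only and 40.4% with upper quartile scaling, and for mature sequences these shares were 50.7%, 64.8% and 40.3%. As the sorted cells were analysed in bulk, a larger share of cells that hold a miRNA and more of it per cell cannot be told apart. The study's methods do not mention molecular identifiers, and the upper limit given below for a count of 0 covers counting error alone, not the full error.

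First, the levels of the 3p arm of mir-132, the most abundant of the 4 mature arms, were compared. miR-132-3p was at 86.0 CPM in the lowest WT mouse, 124 CPM in the median one and 164 CPM in the highest. In *Tet2/3* DKO mice it was at 168 CPM in the lowest, 254 CPM in the median and 374 CPM in the highest. Every *Tet2/3* DKO mouse was therefore above every WT mouse, although the highest WT mouse (replicate 6) and the lowest *Tet2/3* DKO mouse (replicate 7) were close to each other. Among the mature sequences tested, 12.7% likewise had all *Tet2/3* DKO mice above all WT mice. WT mice had a mean of 121 ± 28.8 CPM (SD, n = 6), and the mean of *Tet2/3* DKO mice was 258 ± 69.1 CPM (SD, n = 7). On the log2 scale miR-132-3p rose by 1.10 with a standard error of 0.19, which is a 2.14-fold higher level (edgeR quasi-likelihood test, Benjamini-Hochberg adjusted p = 4.11e-05). Of the 401 mature sequences tested, 87.5% had a lower log2 fold change. In the order of mean levels over all mature sequences, miR-132-3p took place 150 in WT and 119 in *Tet2/3* DKO. These levels rest on 98 to 320 counts in a WT library, and on 374 to 1547 counts in a library of the *Tet2/3* DKO.

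miR-212-3p, which shares the seed of miR-132-3p, was expressed at a lower level and also rose. In WT mice it ranged from 6.63 CPM through a median of 12.1 CPM to 22.2 CPM, and in *Tet2/3* DKO mice from 26.1 CPM through 30.4 CPM to 40.8 CPM. Again the groups did not overlap, and the spread within *Tet2/3* DKO was small beside the distance between the means, which were 13.6 ± 6.11 CPM (SD, n = 6) and 31.8 ± 5.37 CPM (SD, n = 7). The log2 fold change was 1.25 with a standard error of 0.28 and a 95% confidence interval from 0.67 to 1.82 (edgeR adjusted p = 0.000656), a 2.37-fold higher level. Of all mature sequences tested, 89.5% had a lower log2 fold change. Its counts were low, with 13 to 35 in a WT library against 91 to 139 in a *Tet2/3* DKO library.

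Since both 3p arms have the same seed, their levels can be added to give the amount of that seed in a library. The sum was 98.3 CPM in the lowest, 133 CPM in the median and 186 CPM in the highest WT mouse. It was 209 CPM, 288 CPM and 403 CPM in the corresponding *Tet2/3* DKO mice. This sum is dominated by miR-132-3p, which made up 89.7% ± 4.60 (SD, n = 6) of the counts of both 3p arms in WT, beside 88.4% ± 4.07 (SD, n = 7) in the other genotype. The share ranged from 82.4% to 94.7% in WT and from 80.4% to 92.7% in *Tet2/3* DKO, so that its ranges overlapped over most of their width.

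**Figure D2:**
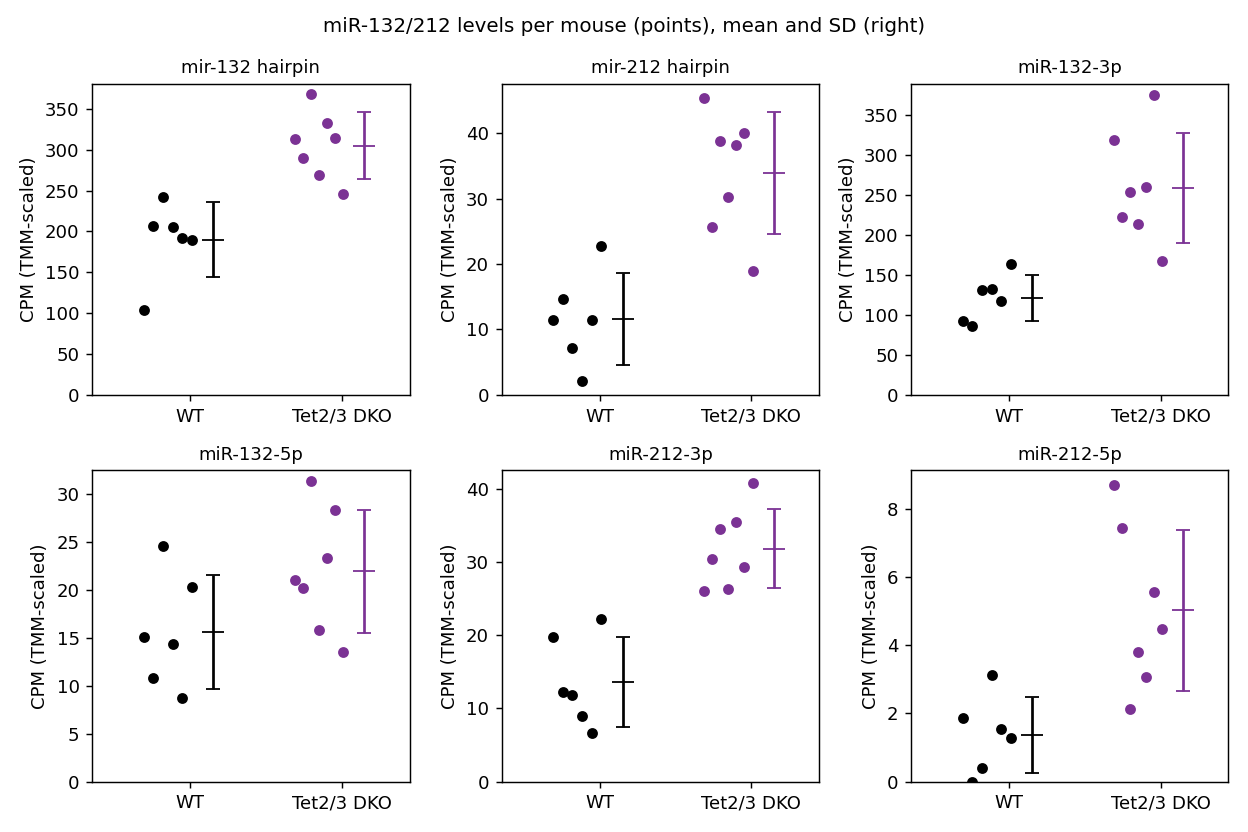
Levels of the 6 members in each mouse, in CPM after TMM scaling on a linear axis, with WT and *Tet2/3* DKO side by side and the mean with its SD to the right of the points. miR-132-3p, miR-212-3p and the mir-132 hairpin show no overlap between genotypes, while miR-132-5p, miR-212-5p and the mir-212 hairpin do.

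The 5p arms, which are the minor products of both hairpins, were next. miR-132-5p was at 8.68 CPM in the lowest WT mouse, 14.7 CPM in the median and 24.6 CPM in the highest. The *Tet2/3* DKO mice gave 13.5 CPM, 21 CPM and 31.3 CPM for the same positions. The groups overlapped broadly. The means of 15.6 ± 5.93 CPM (SD, n = 6) and 21.9 ± 6.37 CPM (SD, n = 7) corresponded to a log2 difference of 0.48 with a 95% confidence interval from -0.12 to 1.08 (edgeR adjusted p = 0.166). The difference did not pass the test, and the interval holds 0 and reaches close to the estimate for miR-132-3p. Of the 3 arms that were tested, 2 were called, both higher in *Tet2/3* DKO, beside 55.6% of all mature sequences called in either direction and 28.2% called higher.

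miR-212-5p was the rarest member. In WT it had 0 to 7 counts per library and 15 in total, which gave 0 CPM in the lowest mouse, 1.40 CPM in the median and 3.13 CPM in the highest. In WT replicate 2 its count of 0 allows a level of up to 2.30 CPM. *Tet2/3* DKO libraries held 6 to 34 counts and 137 in total, with 2.13 CPM in the lowest, 4.49 CPM in the median and 8.70 CPM in the highest mouse. Too few libraries reached the filter of 3.89 CPM for this arm to enter the fit over all mature sequences (0 of 6 WT and 5 of 7 *Tet2/3* DKO libraries). An exact two-sided permutation test of its log2 CPM, chosen after the data were seen, gave a difference of 1.56 (p = 0.0035), and the groups overlapped. The size of this difference depends on the prior count added to such low counts.

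At the level of the hairpins, mir-132 rose moderately. The lowest WT mouse had 104 CPM, the median was 199 CPM and the highest mouse had 242 CPM. The lowest *Tet2/3* DKO mouse had 245 CPM, the median was 313 CPM and the highest had 368 CPM. The groups did not overlap, although the highest WT and the lowest *Tet2/3* DKO mouse were nearly equal, and 18% of all hairpins tested showed such a separation with *Tet2/3* DKO higher. The mean rose from 189.8 ± 46.1 CPM (SD, n = 6) to 305 ± 40.7 CPM (SD, n = 7), a log2 fold change of 0.67 with a standard error of 0.16 and a 95% confidence interval from 0.33 to 1.01 (edgeR adjusted p = 0.00145). This value moved with the scaling of the libraries more than that of any other called member in relative terms, from 0.43 with upper quartile scaling (adjusted p = 0.0257) to 1.01 with library size only, and it stayed called. The median log2 fold change of all 350 hairpins tested was 0.02, and scaling by library size only moved that median by 0.34.

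The hairpin of mir-212 was higher too, but from few counts. WT libraries held 2 to 16 counts, equal to 2.12 CPM in the lowest mouse, 11.5 CPM in the median and 22.8 CPM in the highest. *Tet2/3* DKO libraries held 16 to 81 counts, equal to 18.9 CPM, 38.2 CPM and 45.4 CPM for the same positions. The only overlap was that WT replicate 6, the highest of its group, was above *Tet2/3* DKO replicate 7, the lowest of its own. From 11.6 ± 6.99 CPM (SD, n = 6) to 33.9 ± 9.31 CPM (SD, n = 7), the log2 fold change was 1.59 with a standard error of 0.40 and a 95% confidence interval from 0.76 to 2.42 (edgeR adjusted p = 0.00192). In the order of log2 fold changes it was number 10 from the top among 350 hairpins. However, this hairpin entered the test through the *Tet2/3* DKO libraries, of which 7 of 7 reached the filter of 9.01 CPM against 4 of 6 WT libraries. Both hairpins were called higher, beside 59.7% of all hairpins called in either direction and 32.6% called higher. The reads of a hairpin and of its arms come from the same libraries, so the 2 tables are not independent measurements.

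**Figure D3:**
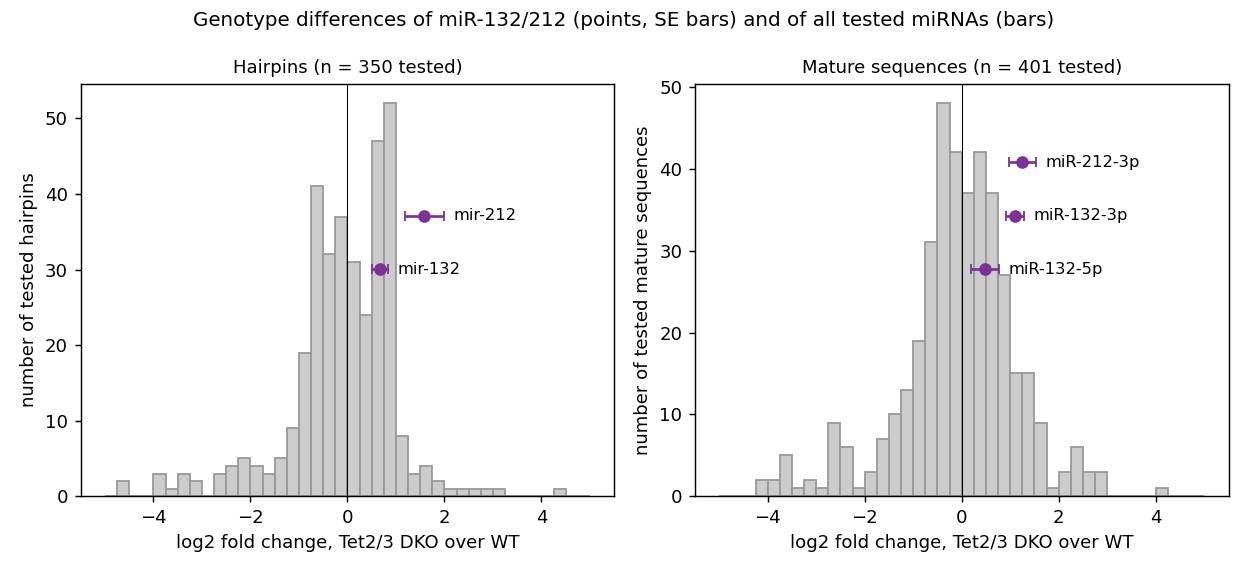
Genotype differences of the tested members (points with SE bars) set against the distribution of log2 fold changes of all tested miRNAs (bars), for 350 hairpins and 401 mature sequences. The horizontal axis is the log2 fold change of *Tet2/3* DKO over WT, and the vertical axis of the bars is the number of miRNAs. The mir-212 hairpin at 1.59 lies near the upper end, and miR-132-5p at 0.48 has the smallest value of the members.

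Whether the members rose to the same extent was asked with 6 ratios of counts within a library, which do not depend on how libraries are scaled. For each ratio the mean log2 value was compared between genotypes by an exact two-sided permutation test with adjustment over the 6 ratios. The ratio of miR-132-3p to miR-212-3p averaged 3.20 ± 0.72 over the WT mice (SD, n = 6) against 2.99 ± 0.55 over the *Tet2/3* DKO mice (SD, n = 7), and the difference of -0.21 had a 95% confidence interval from -0.99 to 0.57 (exact permutation p = 0.543, adjusted p = 0.543). The interval holds 0, and it reaches further towards a larger rise of miR-212-3p than of miR-132-3p. Between the hairpins, the ratio of mir-132 to mir-212 was 4.18 ± 1.26 in WT and 3.20 ± 0.30 in *Tet2/3* DKO, with a difference of -0.98 and an interval from -2.05 to 0.04 (exact permutation p = 0.0606, adjusted p = 0.182). The wide spread in WT came with mir-212 counts as low as 2 in WT replicate 4.

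Next, the arms of each hairpin were set against each other. The log2 ratio of miR-132-3p to miR-132-5p was 2.97 ± 0.47 in WT and 3.56 ± 0.29 in *Tet2/3* DKO, a difference of 0.59 with an interval from 0.11 to 1.05 (exact permutation p = 0.021, adjusted p = 0.126). It did not pass the adjusted threshold. Without WT replicate 5 the difference was 0.74 and passed it (exact permutation test, adjusted p = 0.0303), so 1 library decides this call. In shares of counts, the 3p arm made up 88.6% ± 3.15 (SD, n = 6) of the reads of both mir-132 arms in WT, beside 92.1% ± 1.56 (SD, n = 7) for *Tet2/3* DKO mice. For mir-212 the 3p arm made up 89.6% ± 9.97 in WT and 86.2% ± 6.82 in *Tet2/3* DKO, and the log2 ratio of its arms differed by -0.53 with an interval from -1.92 to 0.86 (exact permutation p = 0.408, adjusted p = 0.543). The remaining ratios set each hairpin against the sum of its arms. They differed by -0.28 for mir-132 (interval -0.68 to 0.11, exact permutation p = 0.142, adjusted p = 0.284) and by 0.37 for mir-212 (interval -0.64 to 1.40, exact permutation p = 0.466, adjusted p = 0.543).

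**Figure D4:**
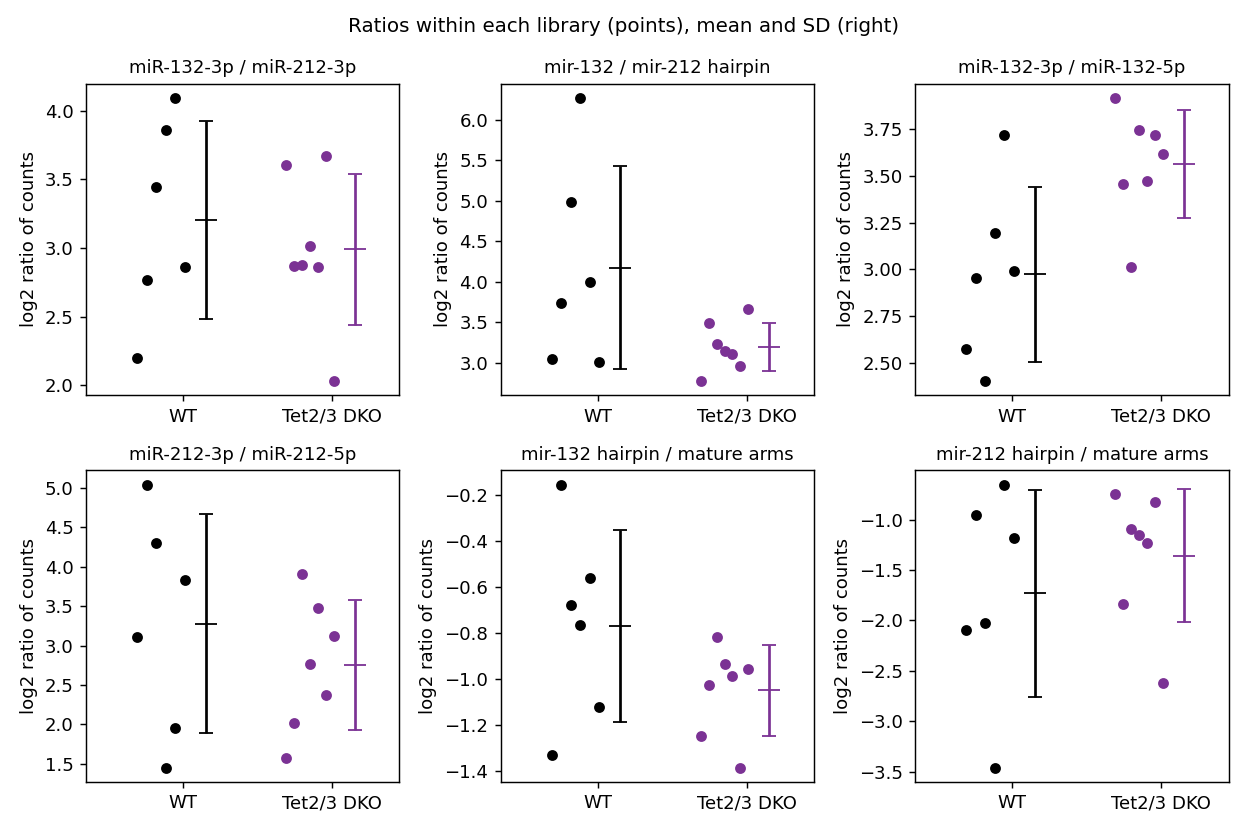
Ratios between members within each library, on a log2 scale, with one point per mouse and the mean with its SD to the right of the points for WT and *Tet2/3* DKO. The ratio of both 3p arms overlaps between genotypes, while the ratio of the mir-132 to the mir-212 hairpin spreads further in WT (SD 1.26) than in *Tet2/3* DKO (SD 0.30).

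Within a genotype, mice with more miR-132-3p were not shown to have more miR-212-3p. In WT, Pearson's r of their log2 CPM was 0.07 (n = 6, exact permutation p = 0.856, adjusted p = 0.919) and Spearman's rho was 0.09 (exact permutation p = 0.919, adjusted p = 0.919). In *Tet2/3* DKO, r was -0.54 (n = 7, exact permutation p = 0.211, adjusted p = 0.707) and rho was -0.43 (exact permutation p = 0.354, adjusted p = 0.707). Without the 2 mice farthest from the median of miR-132-3p, r was 0.96 over 4 WT mice and -0.08 over 5 *Tet2/3* DKO mice. These coefficients thus change with the mice that are included, and mice were not left out one by one for them. No pooled value is given, because the mice fall into 2 genotypes.

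**Figure D5:**
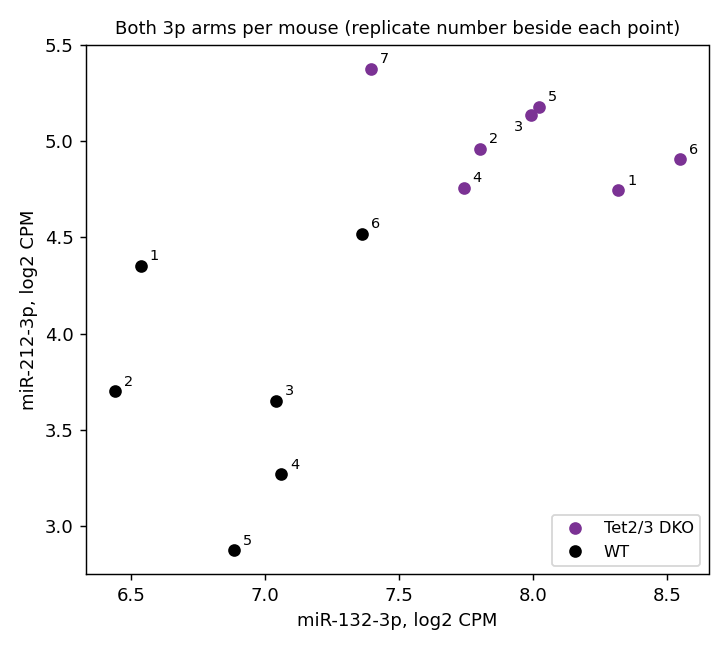
Level of miR-212-3p against that of miR-132-3p in each mouse, both as log2 CPM, with the replicate number beside each point and the genotypes in different colours. The *Tet2/3* DKO mice lie above and to the right of the WT mice, and within neither genotype do the points form a rising line.

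As a description of which miRNAs had a pattern most like that of the 3p arms, log2 CPM values were correlated over the 13 libraries with those of 400 other tested mature sequences. The genotype difference, depth and normalization are shared by all of them. For miR-132-3p the highest coefficients were those of miR-98-5p (r = 0.903), miR-669l-5p (r = 0.902), miR-669f-5p (r = 0.896), miR-467h (r = 0.890) and let-7i-5p (r = 0.883), and miR-212-3p was number 73 (r = 0.677). For miR-212-3p they were those of miR-466i-3p (r = 0.922), miR-466c-5p (r = 0.919) and the arms miR-466b-3p, miR-466c-3p and miR-466p-3p, which have identical counts (r = 0.912). miR-132-3p was number 82 in that order. After the mean of each genotype was subtracted, the highest were miR-25-3p (r = 0.873), miR-20b-3p (r = 0.824), miR-27a-5p (r = 0.788), miR-98-5p (r = 0.786) and miR-106b-3p (r = 0.780) for miR-132-3p. For miR-212-3p they were miR-466p-5p (r = 0.855), miR-466a-5p (r = 0.833), miR-466i-3p (r = 0.781), miR-7667-5p (r = 0.727) and miR-466f-3p (r = 0.726). In these orders miR-212-3p was number 256 for miR-132-3p, and miR-132-3p was number 247 for miR-212-3p (r = -0.112). The 5 sequences named for one 3p arm were other ones than those named for its seed partner, both before and after the subtraction. Lists of 5 out of 400 sequences can differ by chance alone, so nothing about the pair is read from this. The members of the miR-466, miR-467 and miR-669 families are close in sequence, and how the counting divided reads among such copies was not given in the sources used here.

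The neighbourhood of the cluster on chromosome 11 was examined for other hairpins within 1 Mb. The nearest one measured well was mir-22, 289968 bases away (chr11:75463716-75463810). It fell from a WT mean of 74.5 ± 9.95 CPM (SD, n = 6) to a *Tet2/3* DKO mean of 40.1 ± 10.6 CPM (SD, n = 7), with a log2 fold change of -0.89 and a standard error of 0.21 (edgeR adjusted p = 0.00115), and the groups did not overlap. Its direction was the same with each of the 4 scalings. Over all hairpins tested, 27.1% were called lower and 14% had all *Tet2/3* DKO mice below all WT mice, so nothing particular to this neighbour is read from its difference. mir-6926 and mir-3971 had 25 and 46 counts over all libraries and were not tested.

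The cluster was also placed beside other hairpins that have been linked to Th17 cells, the conventional counterpart of NKT17 cells. Of 8 hairpins reported to promote Th17 cells, 6 could be tested and 4 were higher in *Tet2/3* DKO, with 0 lower and a median log2 fold change of 0.74 beside 0.02 over all hairpins. They were mir-155 (0.68, adjusted p = 0.0141), which is induced by TCR signals, mir-21a (0.77, adjusted p = 5.77e-06), mir-301a (0.94, adjusted p = 0.00266) and mir-183 (0.89, adjusted p = 0.0481), all by edgeR. With upper quartile scaling 2 of the 6 were called, mir-21a and mir-301a, and with library size only 5 were. Among mature sequences, 5 of 8 tested arms of these hairpins were called higher and 0 lower, but miR-155-5p was not among them (0.46, edgeR adjusted p = 0.129) and miR-21a-5p rose by only 0.27 (edgeR adjusted p = 0.0239). Of 5 hairpins reported to restrain Th17 cells, 4 were tested and 3 were higher, with a median of 0.51. They were mir-20b (0.25, adjusted p = 0.0377), mir-18a (0.77, adjusted p = 0.00533) and mir-210 (1.22, adjusted p = 0.0435), the last of which is induced by hypoxia. With upper quartile scaling 0 of these 4 were called, and the median was 0.27. Of 7 tested arms of these hairpins, 3 were higher and 1 was lower. mir-146a, an inhibitor of NF-κB signalling, had a log2 difference of -0.33 (edgeR adjusted p = 0.285), which was 0.01 with library size only. Of 14 hairpins induced in activated T cells, 5 were higher (mir-155, mir-21a, mir-17, mir-18a and mir-20a), 2 were lower (mir-92a-1 and mir-214) and 7 did not pass the test, with a median of 0.35. mir-214 also stands in the list of stromal markers. With upper quartile scaling 3 of the 14 were higher and 3 were lower. Among 19 tested arms of these hairpins 5 were higher and 3 were lower. Over all hairpins 32.6% were called higher and 27.1% lower, over all mature sequences 28.2% were called higher and 27.4% lower, and nothing particular to a list is read from these counts.

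Markers of other cells are given beside the rise of the cluster. Neurons, the cells best known for miR-132, were represented by 7 hairpins of the mir-124, mir-9 and mir-137 families, whose summed level was 1.43 to 27.6 CPM in WT and 2.36 to 17.3 CPM in *Tet2/3* DKO, and none of these hairpins had enough counts for a test. Of their arms only miR-9-5p (log2 difference -0.70, edgeR adjusted p = 0.187) and miR-9-3p (0.22, edgeR adjusted p = 0.724) were tested, and neither was called. mir-137 had 1 count summed over all libraries, and mir-124-1 and mir-124-3 were at 0 in every *Tet2/3* DKO library. The markers of red cells (3 of 4 tested, 3 lower), of stroma (3 of 5 tested, 3 lower) and of myeloid cells (mir-223, lower) were lower in *Tet2/3* DKO, beside 27.1% of all hairpins called lower. Near-copies in these lists had almost equal counts, 4918 for mir-486a and 4914 for mir-486b, and 195 for mir-199a-1 and 208 for mir-199a-2. They may hold the same reads and are not separate markers, and the sums below count both. The summed level of the red cell list was 802 to 2239 CPM in WT and 174 to 656 CPM in *Tet2/3* DKO, that of stroma 49.3 to 138 CPM and 8.89 to 30.7 CPM, and that of mir-223 20.1 to 310 CPM and 0 to 19.2 CPM. The hepatocyte marker mir-122 was at 4.25 to 22.8 CPM in WT and at 0 to 2.98 CPM in *Tet2/3* DKO and was not tested as a hairpin. Its arm miR-122-5p had a mean of 315 CPM in WT, fell to a mean of 21.5 CPM in the *Tet2/3* DKO and was called lower (edgeR adjusted p = 0.00625). Epithelial markers (5 of 7 tested) and endothelial markers (2 of 2 tested) held no call among hairpins, with summed levels of 600.2 to 809 CPM and 179 to 400 CPM in WT and of 588 to 703 CPM and 163 to 246 CPM in *Tet2/3* DKO. With upper quartile scaling 3 epithelial and 1 endothelial marker were called lower. Among mature sequences, 4 of 7 tested epithelial arms were called lower, beside 27.4% of all mature sequences. They were miR-200a-3p (-1.31), miR-200b-5p (-1.85), miR-200c-3p (-0.89) and miR-141-3p (-0.65). Of 3 tested endothelial arms miR-126a-3p was called higher (0.69, edgeR adjusted p = 0.00249). The lists of red cells, stroma and myeloid cells were thus lower where the cluster was higher, in both tables. The sort took live cells positive for TCRβ and for the tetramer after depletion of CD24+ cells, a gate that does not select any of these other cell types. The part of these cells in the measured differences was not tested.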

How the data were processed

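Small RNA-seq of thymic iNKT cells was available as 2 tables of whole-number counts, which the authors made with nf-core/smrnaseq at default parameters and deposited without normalization, 1 with counts per hairpin and 1 with counts per mature sequence. The submitters' processing notes name mm10. The aligner, the miRNA release, the treatment of reads that match several sequences and the division of reads between the 2 tables are not given in the sources used here. Each column was assigned to the mouse whose genotype and replicate number its name gives, with 0 columns unused. Replicate libraries differed by more than sampling noise (smallest chi-square per degree of freedom 9.78), so each counts as 1 replicate.

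Both tables were tested whole with edgeR 4.0.16 (R 4.3.3, limma 3.58.1). Features were kept by filterByExpr (minimum count 10, minimum total count 15), libraries were scaled by TMM, and genotypes were compared by the robust quasi-likelihood test with Benjamini-Hochberg adjustment and a threshold of 0.05. The standard error is the log2 fold change divided by the square root of F. Log2 CPM used a prior count of 2, and ratios used 0.5 added to each count. Exact tests of a difference between genotypes ran over all 1716 ways to divide 13 libraries into 6 and 7, so the smallest p was 0.00117. Without 1 mouse they ran over all divisions of the libraries left. Exact tests of correlations ran over all pairings of the values within a genotype. With the replicate block, ratios were tested by flipping the signs of differences between same-numbered mice, with a smallest p of 0.03125. Ratios and figures used Python 3.11.15, scipy 1.17.1 and matplotlib 3.10.9. The scripts were tested on simulated data.

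Positions come from RefSeq GRCm38.p6 and GENCODE M21 (GRCm38, the same build as mm10), since the tables hold no coordinates. Sequences of all members were found in the RefSeq table. The miRNAs named are the members, the 5 sequences most like each 3p arm, hairpins within 1 Mb, and members of lists. The rule for the members uses names alone, but the cluster and the lists were chosen with earlier results of these data known. Arms of listed hairpins were matched by name. The alternatives were other scalings (RLE, upper quartile, library size only), other filters, DESeq2 1.42.0, limma-voom, the replicate block, another ratio pseudocount of 1 and leaving out each mouse. The exact test of log2 CPM, the other scalings for lists and the arms of listed hairpins were chosen after seeing the data.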

Additional observations from a re-analysis of the deposited data

Results flagged for a closer look

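One mouse stood apart from its group. The mir-132 hairpin in WT replicate 1 had a log2 CPM of 6.72, and the next lowest WT mouse had 7.58. Of 24 groups of values that were checked for a single distant mouse, this was the 1 found. Chance gives such a mouse in about 1 of 20 groups, so nothing more is read from it. The value rests on 45 counts in the shallowest WT library. Without WT replicate 1 the log2 fold change of the mir-132 hairpin was 0.56 (edgeR adjusted p = 0.00181), against 0.67 with it, and the call was kept.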

How the results depend on the processing

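Under every alternative that gave a value, mir-132, mir-212, miR-132-3p, miR-212-3p and miR-212-5p stayed higher in *Tet2/3* DKO with p under 0.05. miR-132-5p stayed positive and uncalled. These p-values were adjusted, except those of the exact test of log2 CPM, which alone was run for miR-212-5p without 1 mouse. The log2 fold changes over other scalings, filters and tools were 0.43 to 1.01 for mir-132, 1.33 to 1.92 for mir-212, 0.91 to 1.32 for miR-132-3p, 0.28 to 0.69 for miR-132-5p and 1.09 to 1.49 for miR-212-3p, and without single mice they were 0.56 to 0.80, 1.40 to 1.96, 0.94 to 1.12, 0.27 to 0.59 and 1.02 to 1.37. miR-212-5p gave 1.91 without the filter (edgeR adjusted p = 0.0268), 1.89 with DESeq2 (adjusted p = 0.0122) and 1.29 to 1.78 without single mice. The mir-212 hairpin had no value when at least 10 counts were asked of every library, and miR-212-5p had none under the scalings, that filter, limma-voom and the block, so its statement rests on the exact test, 2 other settings and leaving out single mice. The replicate block added a term for replicate number and left out *Tet2/3* DKO replicate 7, whose number no WT mouse had. With it, mir-132 was at 0.74 (edgeR adjusted p = 0.00124), mir-212 at 1.77 (adjusted p = 0.0018) and miR-132-3p at 1.10 (adjusted p = 4.58e-06). miR-132-5p was at 0.53 (edgeR adjusted p = 0.111) and miR-212-3p at 1.16 (adjusted p = 0.00277). Leaving out that mouse without the block gave 0.72 for mir-132, 1.68 for mir-212, 1.10 for miR-132-3p, 0.48 for miR-132-5p and 1.10 for miR-212-3p. The block changed no call of a member and moved the calls over all hairpins to 115 higher and 102 lower. Same-numbered mice had correlations of -0.05 to 0.34 in the hairpin table and of 0.01 to 0.34 in the mature table. The own number was the best partner for 2 of 6 numbers, which were 5 and 6 in both tables. Whether mice with the same number share more than the number was not tested.

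The count of hairpins called lower in *Tet2/3* DKO was 95, and it was 56 with library size only, 156 without the filter and 160 with DESeq2; the cause was not tested. The difference in the ratio of miR-132-3p to miR-132-5p was 0.48 to 0.74 without single mice, and only without WT replicate 5 (0.74) did it pass. Without the 2 farthest mice the correlation of both 3p arms was 0.965 in WT and -0.0756 in *Tet2/3* DKO. Low counts of miR-212-5p and the mir-212 hairpin limit their precision, above all in the shallower WT libraries.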

Other observations

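Among the less abundant arms, miR-212-3p had more counts than miR-132-5p in 3 of 6 WT libraries and in 7 of 7 *Tet2/3* DKO libraries. This order was looked at after the values were seen, and it was not tested.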
